A study of Phaseolus vulgaris with 12 samples.

Results

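The bZIP and homeobox transcription factors of common bean (Phaseolus vulgaris) were followed in true leaves of the varieties 093 and 120. A locus belonged to the bZIP family when its gene description named bZIP or a basic leucine zipper, and to the homeobox family when it named a homeobox or a homeodomain-leucine zipper. Descriptions that also named MYB were left out. Of 22542 loci in the expression table, 42 matched as bZIP and 78 as homeobox. At least 1 FPKM (fragments scaled to transcript length and to the mapped total of the library) in at least 3 of the 12 libraries was reached by 27 bZIP and 45 homeobox loci, and these 72 are the members described here, each family on its own.

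The 12 libraries were mRNA sequencing libraries in 4 groups of 3. The study's design text calls variety 093 cold-sensitive and variety 120 cold-tolerant. In 093 cold and 120 cold the pots stood in an incubator at 4 °C for 3 days, and in 093 control and 120 control they stayed on a culture rack without cold, with the same daily light period. Cold and place of growth cannot be told apart in this design, and no genotype beyond the variety is given. Whether the 3 libraries in each group stem from different plants or pots is not stated, and the p-values therefore describe library-to-library spread, which could be technical. In bulk leaf RNA, fewer cells of a type and less RNA per cell cannot be told apart.

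Plant bZIP factors bind DNA as dimers through a basic region next to a leucine zipper, and the partner chosen for the dimer alters the target. In Arabidopsis, the family includes the ABF factors that act in abscisic acid (ABA) signalling, the TGA factors that act with the salicylic acid receptor protein NPR1, HY5 of light signalling, membrane-bound factors of the endoplasmic reticulum (ER) stress response, and sugar-regulated factors. Homeobox factors bind DNA through a homeodomain. In plants the HD-ZIP proteins join a homeodomain to a leucine zipper and form classes I to IV, with class I linked to drought and ABA, class II to shade and auxin, class III to leaf polarity and vascular tissue, and class IV to the epidermis. The KNOX and BELL proteins form heterodimers with each other, and the WUSCHEL-related (WOX) proteins make up a further branch. Subgroups below were assigned by hand from the table's gene descriptions, GO terms and KEGG entries, with the values known.

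At least 1 FPKM in all 12 libraries was found for 17 bZIP and 28 homeobox members. The filter was passed with exactly 3 libraries by 3 bZIP and 5 homeobox members. It was passed through cold libraries only by 3 and 6 members, and through control libraries only by 2 and 4. For these the filter fixed which condition held the libraries at 1 FPKM or more, not that every library of the groups separated. The bZIP members admitted through cold libraries were Phvul.001G140100, Phvul.003G028800 and Phvul.007G257700, and through control libraries Phvul.007G025500 and Phvul.005G068500. The homeobox members admitted through cold libraries were Phvul.010G117200, Phvul.001G224900, Phvul.002G246800, Phvul.003G138200, Phvul.006G013200 and Phvul.008G114300, and through control libraries Phvul.002G094100, Phvul.009G012200, Phvul.010G052200 and Phvul.010G148700. For these 15 the direction between the admitting and the other libraries was fixed at least in part by the filter. Just inside the threshold, the third-highest library stood at 1.05 FPKM for Phvul.007G260900 and 1.06 FPKM for Phvul.010G148700. Just outside it, the third-highest library stood at 0.993 FPKM for Phvul.004G120500 and 0.761 FPKM for Phvul.002G067300. Of the 48 matching loci that did not pass, 15 were bZIP and 33 homeobox, and their highest values in any library were 1.17 FPKM (Phvul.001G188300) and 1.59 FPKM (Phvul.003G213500). Mean levels over the 12 libraries ran from 0.721 FPKM (Phvul.007G257700) to 29.1 FPKM (Phvul.006G101700) in the bZIP family. In the homeobox family they ran from 0.600 FPKM (Phvul.002G094100) to 84.1 FPKM (Phvul.009G209500).

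The FPKM of a library summed to 313320 to 350100, with 12091 to 13357 loci at 1 FPKM or more. Intervals for counting error are not given, because read totals are not known. The leaf label was checked against leaf mesophyll markers (Rubisco small subunits, Rubisco activase and light-harvesting proteins). Of 25 such loci, 24 passed the filter and 0 were at 0 in every library. Their summed level was 22880 to 33860 FPKM in 093 control and 26470 to 30720 FPKM in 120 control, against 8583 to 9261 FPKM in 093 cold and 6309 to 10830 FPKM in 120 cold. Of the 24, 16 fell under cold in 093 and 17 in 120. Cotyledon and seed markers, with 12 of 45 loci passing, summed to 29.1 to 263 FPKM in 093 control, 125 to 166 FPKM in 093 cold, 21.8 to 26.3 FPKM in 120 control and 180.1 to 272 FPKM in 120 cold. Root markers (7 of 11 passing) moved within 66.1 to 101 FPKM in 093 control, 148 to 159 FPKM in 093 cold, 116 to 159 FPKM in 120 control and 118 to 130.3 FPKM in 120 cold. Shoot meristem markers (3 of 16 passing) lay between 30.5 and 43.9 FPKM in all 12 libraries, and the 3 that passed are the WOX13 members described below. The part of these markers in the results below was not tested.

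Changes below are differences of group means on log2(FPKM + 1), on which changes of low loci are understated. A member was called, and is said to have risen or fallen, when limma's adjusted p was below 0.05 and the log2 change was 1 or more in size. Under cold in 093, 11 bZIP members rose and 3 fell, so that 14 of 27 (51.9%) were called beside 48.2% of all 14716 loci tested. In 120, 7 rose and 3 fell, so that 10 of 27 (37.0%) were called beside 46.4% of all loci. Among homeobox members, 12 rose and 9 fell in 093 (21 of 45, 46.7%), against 9 and 18 in 120 (27 of 45, 60.0%). Over all loci, 33.0% rose and 15.2% fell in 093, against 27.8% and 18.6% in 120. The median log2 change in 093 was 0.58 for bZIP, 0.14 for homeobox and 0.43 for all loci, and in 120 it was 0.31, -0.43 and 0.18. Control and cold libraries were fully separate for 17 bZIP and 37 homeobox members in 093, beside 78.3% of all loci, and for 19 and 35 in 120, beside 72.8%. Both families' shares called in 093 stood near that of all loci, and more homeobox members fell than rose in 120 while more of all loci rose. The shares of all loci, 48.2% called in 093 and 46.4% in 120, also stand beside the counts of subgroups and lists below.

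These directions depend in part on how libraries are scaled. Median-ratio scaling moved the median of all loci by -0.42 in 093 and -0.16 in 120, and quantile normalization by -0.43 and -0.22. In 093 the bZIP members then split into 7 higher and 5 lower under either scaling, and the homeobox members into 7 higher and 13 lower or 6 higher and 16 lower. In 120 the bZIP split became 6 against 3 or 5 against 4, and the homeobox split 8 against 18 or 8 against 21. Homeobox members thus fell more often than they rose in 120 under every scaling, whereas in 093 the majority turned with the scaling.

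Of the 27 bZIP members, 6 (22.2%) rose in both varieties, 1 (3.70%) fell in both, 7 (25.9%) were called in 093 alone, 3 (11.1%) in 120 alone and 10 (37.0%) in neither. Of the 45 homeobox members, 6 (13.3%) rose in both, 9 (20.0%) fell in both, 6 (13.3%) were called in 093 alone, 12 (26.7%) in 120 alone and 12 (26.7%) in neither. The shares of all loci were 22.4%, 11.1%, 14.5%, 12.7% and 39.1% in the same order. Opposite calls were made for 0 members and for 0.245% of all loci. Whether a response differed between the varieties was tested as the interaction, 120 minus 093. It was called for 5 bZIP members, all lower in 120, and for 16 homeobox members, 3 higher and 13 lower, beside 19.6% of all loci (6.50% higher, 13.1% lower). For homeobox this is 35.6% of members, and for bZIP 18.5%. Median-ratio scaling, which moved the median difference of all loci by 0.26, gave 3 higher and 9 lower homeobox members, and 4 higher and 3 lower bZIP members. Quantile normalization moved it by 0.19 and gave 3 higher and 10 lower homeobox members, and 3 higher and 2 lower bZIP members. The bZIP members called higher under both were the bZIP60 locus Phvul.007G247600, the bZIP16 locus Phvul.003G273900 and Phvul.009G142900, joined under median-ratio scaling by Phvul.002G203300. The bZIP count became 3 without 093 control library 2 or 120 control library 1, and 9 without 120 cold library 3.

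**Figure D1:**
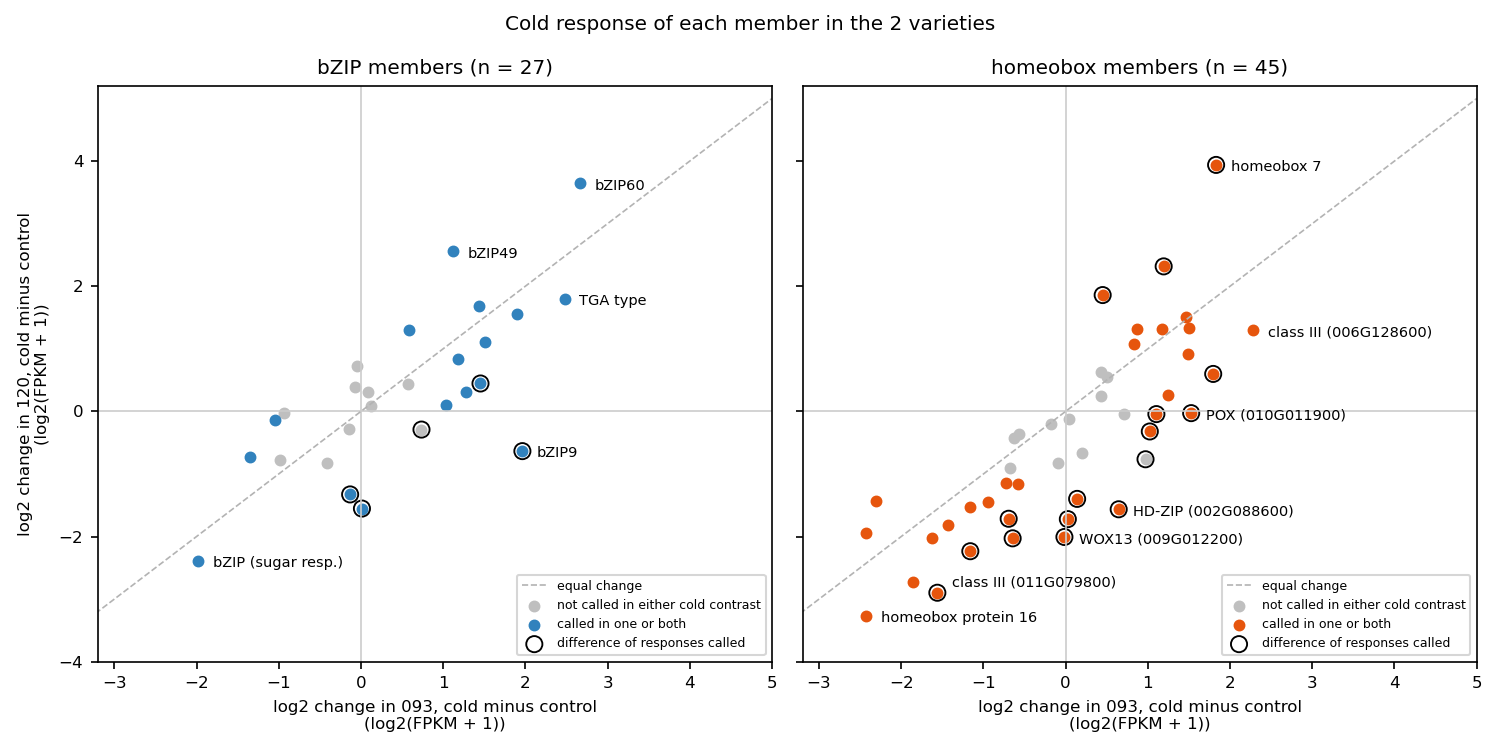
Log2 change under cold on log2(FPKM + 1) in 093 (horizontal) and 120 (vertical) for 27 bZIP members (left) and 45 homeobox members (right). Each point is a member, coloured where it was called in a cold contrast and ringed where the difference of the responses was called. Homeobox 7 and bZIP60 lie highest in 120, and the ringed points lie mostly below the dashed line of equal change.

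The bZIP members placed as membrane-bound rose under cold in both varieties. In Arabidopsis, bZIP60 is made as an ER membrane protein unless the splicing enzyme IRE1 has processed its mRNA. There, bZIP49 belongs to the group that site proteases release by cleavage. The bZIP60 locus (Phvul.007G247600) stood at 2.92, 1.6 and 4.71 FPKM in 093 control and 24.1, 25.01 and 21.7 FPKM in 093 cold. In 120 it stood at 2.6, 2.73 and 3.801 FPKM in 120 control and 52.6, 61.2 and 36.6 FPKM in 120 cold. Every cold library lay above every control library of both varieties, and the 120 cold libraries lay above those of 093 cold. It rose by 2.66 (SE 0.264, adjusted p = 2.6e-06) in 093 and by 3.64 (SE 0.264, adjusted p = 2.2e-07) in 120. The difference of the responses, 0.98 (SE 0.374, adjusted p = 0.065), missed the threshold, but it was called with median-ratio scaling (1.25, adjusted p = 0.02) and quantile normalization (1.07, adjusted p = 0.031), and without 093 control library 2 (1.27, adjusted p = 0.015) or 120 cold library 3 (1.18, adjusted p = 0.028).

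Phvul.001G119300 was placed as bZIP49 by its description alone. Its KEGG entry (K03248) is shared by no other bZIP member and was not used to place it. The name is therefore uncertain, and whether the values are those of a bZIP gene alone is not known here. The bZIP49 locus (Phvul.001G119300) read 0.802, 0.757 and 4.603 FPKM in 093 control and 3.24, 4.72 and 6.497 FPKM in 093 cold, where the third control library overlapped with the cold libraries. It read 1.57, 0.871 and 1.75 FPKM in 120 control and 14.01, 17.6 and 8.68 FPKM in 120 cold, and these did not overlap. The rise was 1.12 (SE 0.42, adjusted p = 0.031) in 093 and 2.56 (SE 0.42, adjusted p = 0.00018) in 120. The difference of the responses was not called, at 1.44 (SE 0.594, adjusted p = 0.084). The call in 093 was lost with no filter on low values (1.12, adjusted p = 0.055), median-ratio scaling (0.76), quantile normalization (0.74) and only the compared groups in the fit (1.12, adjusted p = 0.079) and without 093 control library 1 (0.85), 093 control library 2 (0.83), 093 cold library 2 (1.11, adjusted p = 0.066) and 093 cold library 3 (0.92).

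Around these factors, 31 loci of a list for unfolded protein response partners were tested. Rises and falls numbered 11 and 4 in 093 (48.4% called) and 9 and 5 in 120 (45.2% called). These shares stood near those of all loci, 48.2% and 46.4%. Either other scaling gave 8 against 6 in 093 and 7 against 5 in 120. Its words also matched DNAJ proteins without a stated ER site. A protein disulfide isomerase-like locus, PDI-like 1-2 (Phvul.009G126800), which helps fold secreted proteins, rose, with means of 6.59 ± 0.587 FPKM without and 38.5 ± 0.912 FPKM with cold in 093, and 3.24 ± 1.01 and 67.2 ± 8.296 FPKM in 120 (mean ± SD, n = 3 libraries, as for other means below). Its rise was larger in 120, with a difference of 1.65 (SE 0.231, adjusted p = 0.00046). Of the DNAJ heat shock proteins, Phvul.002G062800 rose, with means of 3.28 ± 0.596 FPKM without and 19 ± 0.7599 FPKM with cold in 093, and 2.62 ± 0.621 and 14.5 ± 0.397 FPKM in 120. The other, Phvul.005G094000, fell, with means of 58.6 ± 14.2 FPKM without and 11.04 ± 0.5701 FPKM with cold in 093, and 65.3 ± 13.6 and 16.1 ± 3.52 FPKM in 120.

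A further 3 loci of that list, for calnexin, IRE1 and site-1 protease, were chosen after their values were seen. All 3 changed upward, while the whole list held 4 falls in 093 and 5 in 120. Calnexin 1 (MSTRG.2687), an ER lectin chaperone, rose by 2.46 (SE 0.162, adjusted p = 9.9e-08) in 093 and 1.61 (SE 0.162, adjusted p = 3.2e-06) in 120. The IRE1 locus (Phvul.003G271000) changed by 0.98 (SE 0.167, adjusted p = 0.00022) in 093, short of the log2 threshold, and rose by 1.15 (SE 0.167, adjusted p = 6.6e-05) in 120. The site-1 protease locus (Phvul.004G164500) rose by 1.33 (SE 0.151, adjusted p = 8.3e-06) in 093 and changed by 0.88 (SE 0.151, adjusted p = 0.00025) in 120. The call of IRE1 in 120 was lost with median-ratio scaling (0.97) and quantile normalization (0.87), and that of site-1 protease in 093 with median-ratio scaling (0.88) and quantile normalization (0.93).

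TGA-type factors, those of the KEGG entry for TGA, had 7 members, and they varied among themselves. Rises and falls numbered 4 and 0 in 093 and 2 and 1 in 120. The split in 093 was 3 against 1 with median-ratio scaling and 2 against 1 with quantile normalization. Of the rises, Phvul.001G140100 and Phvul.003G028800 in both varieties and Phvul.007G257700 in 093 are of loci that passed the filter through cold libraries only, which set their direction. Phvul.001G140100 was listed at 0 in all 6 control libraries. Its 093 cold libraries read 4.61, 3.94 and 5.26 FPKM, its 120 cold libraries read 2.68, 3.88 and 1.33 FPKM, and it was called higher in both varieties (adjusted p = 1.1e-06 and 1.7e-05). Phvul.003G028800 read 0.2896, 0.102 and 0.201 FPKM in 093 control, 2.02, 2.35 and 2.32 in 093 cold, 0.383, 0.278 and 0.112 in 120 control and 3.02, 2.37 and 3.82 in 120 cold. No control library reached any cold library, and it rose by 1.43 (SE 0.157, adjusted p = 6.1e-06) in 093 and 1.68 (SE 0.157, adjusted p = 1.7e-06) in 120.

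Phvul.007G257700 passed the filter through 093 cold alone, so each value that uses this group rests on the libraries that admitted it. It read 0.111, 0.193 and 0.136 FPKM in 093 control and 1.63, 1.68 and 2.09 FPKM in 093 cold. In 120 it read 0.457, 0.249 and 0.213 FPKM in 120 control and 0.673, 0.849 and 0.373 FPKM in 120 cold. It rose by 1.28 (SE 0.146, adjusted p = 8.3e-06) in 093 and changed by 0.31 (SE 0.146, adjusted p = 0.073) in 120, where the libraries overlapped. The difference of -0.97 (SE 0.206, adjusted p = 0.0049) fell just short of the log2 threshold. Phvul.005G124100, chosen after its values were seen, rose by 1.18 (SE 0.252, adjusted p = 0.0012) in 093 and changed by 0.84 (SE 0.252, adjusted p = 0.01) in 120. The 093 call was lost for Phvul.007G257700 with quantile normalization (0.87), and for Phvul.005G124100 with median-ratio scaling (0.75) and quantile normalization (0.76).

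The other TGA-type members were lower or level under cold. Phvul.008G169000 read 2.18, 0.577 and 0.991 FPKM in 093 control, 1.41, 0.7099 and 0.842 in 093 cold, 3.99, 3.24 and 2.27 in 120 control and 0.813, 0.528 and 0.581 in 120 cold. It fell by 1.33 (SE 0.253, adjusted p = 0.00056) in 120 and overlapped between the groups in 093, at -0.13 (SE 0.253, adjusted p = 0.66). The difference of -1.196 (SE 0.358, adjusted p = 0.025) was no longer called with quantile normalization (-0.93) and without 093 control library 2 (-0.97), 093 cold library 1 (-1.05, adjusted p = 0.063), 120 control library 1 (-1.05, adjusted p = 0.058) and 120 cold library 2 (-1.15, adjusted p = 0.053). Phvul.007G025500 passed the filter through 093 control alone, so each value that uses this group rests on the libraries that admitted it. It was lower in every cold library than in every control library of its variety. It had means of 2.08 ± 0.568 FPKM without and 0.545 ± 0.1897 FPKM with cold in 093, and 0.822 ± 0.0888 and 0.0629 ± 0.0328 FPKM in 120, but its log2 changes of -0.98 and -0.78 missed the threshold of size. That of 093 was called with median-ratio scaling (-1.26) and quantile normalization (-1.435). The most abundant of them, Phvul.001G249300, read 36.7, 23.6 and 28.7 FPKM in 093 control, 26.9, 25.5 and 26.6 in 093 cold, 32.7, 20.1 and 30.4 in 120 control and 32.03, 24.8 and 13.5 in 120 cold. Its groups overlapped throughout, and it was called in none of the 5 contrasts.

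A list of further TGA factors and NPR1 partners had 10 loci tested, of which 4 had risen and 2 fallen in 093 and 2 risen and 2 fallen in 120. Either scaling left 2 against 2 in 093. Its words also matched loci described as suppressors of an npr1 mutant. NPR1-like protein 3 (Phvul.006G131400), in Arabidopsis a salicylic acid receptor, rose, with means of 26.2 ± 6.52 FPKM without and 179.8 ± 4.68 FPKM with cold in 093, and 42.03 ± 2.42 and 152 ± 26.98 FPKM in 120. TGACG motif-binding factor 6 (Phvul.011G203400) rose, with means of 13.5 ± 0.769 FPKM without and 34 ± 1.05 FPKM with cold in 093, and 11.8 ± 2.42 and 48.2 ± 8.68 FPKM in 120. Its call in 093 was lost with median-ratio scaling (0.75) and quantile normalization (0.79). A suppressor of npr1-1 constitutive 4 locus (MSTRG.5297) fell, with means of 80.4 ± 14.99 FPKM without and 11.3 ± 0.971 FPKM with cold in 093, and 68.9 ± 3.26 and 19.7 ± 3.46 FPKM in 120.

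Of the pair of ABF-type members, 1 rose in 093 and neither was called under cold in 120. ABF factors bind ABA-responsive promoter elements. Phvul.007G081000 read 3.76, 3.27 and 3.51 FPKM in 093 control, 8.58, 8.15 and 8.096 in 093 cold, 2.499, 2.14 and 2.58 in 120 control and 2.23, 2.56 and 3.18 in 120 cold. It rose by 1.04 (SE 0.133, adjusted p = 2.2e-05) in 093, where the groups did not overlap, and changed by 0.095 (SE 0.133, adjusted p = 0.54) in 120. Under cold it was lower in 120 than in 093, by 1.35 (SE 0.133, adjusted p = 2.2e-05). The rise in 093 was lost with median-ratio scaling (0.58) and quantile normalization (0.64), whereas the difference between the varieties under cold was called under every alternative. Phvul.002G203300 read 5.75, 3.499 and 5.78 FPKM in 093 control, 5.01, 5.14 and 4.04 in 093 cold, 4.99, 5.49 and 4.63 in 120 control and 7.98, 10.7 and 8.42 in 120 cold. All 120 cold libraries lay above all others, but the changes of -0.05 in 093 and 0.72 in 120 were not called. The difference of the responses, 0.77 (SE 0.256, adjusted p = 0.038), was called with median-ratio scaling (1.03, adjusted p = 0.0078).

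Loci whose own descriptions name ABF or ABI5, without the word bZIP, were called in both varieties. Of 5 tested, 2 had risen and 1 fallen in 093 and 3 risen and 1 fallen in 120, with the same split under both scalings. An ABF2 locus (Phvul.009G065500) read 1.46, 1.96 and 1.76 FPKM in 093 control, 20.3, 22.5 and 45.5 in 093 cold, 2.13, 2.44 and 2.39 in 120 control and 49.8, 44.4 and 40.8 in 120 cold, rising by 3.39 (SE 0.242, adjusted p = 1.8e-07) in 093 and 3.79 (SE 0.242, adjusted p = 8e-08) in 120. AREB3 (Phvul.011G186800), of the same clade, rose, with means of 2.87 ± 0.487 FPKM without and 21.5 ± 0.859 FPKM with cold in 093, and 4.56 ± 0.749 and 27.7 ± 3.32 FPKM in 120. A second ABF2 locus (Phvul.003G291800) went the other way. It fell, with means of 10.8 ± 0.487 FPKM without and 4.07 ± 1.06 FPKM with cold in 093, and 34.4 ± 1.53 and 5.73 ± 1.98 FPKM in 120. It had stood higher in 120 without cold, by 1.59 (SE 0.199, adjusted p = 0.00014), and the difference of its responses, -1.198 (SE 0.281, adjusted p = 0.008), was lost with median-ratio scaling (-0.94) and quantile normalization (-0.96).

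In ABA core signalling, 6 of 11 tested loci rose and 1 fell in 093, against 7 and 1 in 120, the latter becoming 5 against 2 under either scaling. The 3 that led were highly ABA-induced protein phosphatases of type 2C, which restrain ABA signalling. Phvul.001G075400 read 0.342, 0.115 and 0.284 FPKM in 093 control, 21.3, 20.3 and 21.2 in 093 cold, 0.918, 0.916 and 0.657 in 120 control and 111, 108 and 80.4 in 120 cold. Cold libraries of 120 lay above those of 093, and the rises of 4.14 (SE 0.146, adjusted p = 1.4e-09) in 093 and 5.77 (SE 0.146, adjusted p = 1.3e-10) in 120 differed by 1.63 (SE 0.207, adjusted p = 0.00025). That difference was lost with a pseudocount of 0.1 (0.76). Phvul.008G231200 rose, with means of 7.63 ± 1.77 FPKM without and 41.8 ± 2.99 FPKM with cold in 093, and 11.9 ± 0.721 and 108 ± 25.3 FPKM in 120. Phvul.002G163900 rose, with means of 0.0519 ± 0.0558 FPKM without and 4.94 ± 0.473 FPKM with cold in 093, and 0.118 ± 0.104 and 8.17 ± 3.42 FPKM in 120.

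The HY5-type member and the pair described as bZIP16 are given together here, and of the 3, 1 fell in 093. The HY5-type member (Phvul.006G029200), placed by its GO terms for light signalling and whose Arabidopsis counterpart promotes light responses of seedlings, read 9.102, 10.97 and 11.2 FPKM in 093 control, 11, 10.5 and 11.7 in 093 cold, 13.5, 14.9 and 12.6 in 120 control and 12.99, 21.7 and 17.9 in 120 cold. Its cold and control libraries overlapped in both varieties, and the changes were 0.08 (SE 0.166, adjusted p = 0.66) in 093 and 0.31 (SE 0.166, adjusted p = 0.11) in 120. Its KEGG entry is shared by the bZIP60 locus Phvul.007G247600 and by Phvul.007G187400, which were placed by description and by GO terms for glucose, and which rose in both varieties and in 093 respectively. Of the pair described as bZIP16, which in Arabidopsis binds G-box elements, Phvul.003G273900 read 9.85, 10.3 and 13.3 FPKM in 093 control, 4.91, 4.46 and 5.22 in 093 cold, 11.5, 9.36 and 10.8 in 120 control and 9.95, 10.8 and 7.85 in 120 cold. It fell by 1.04 (SE 0.152, adjusted p = 6.5e-05) in 093 and changed by -0.14 (SE 0.152, adjusted p = 0.43) in 120. The difference of 0.905 (SE 0.215, adjusted p = 0.0086) was under the size threshold, and it was called with median-ratio scaling (1.18, adjusted p = 0.0015), quantile normalization (1.105, adjusted p = 0.0018) and a pseudocount of 0.1 (1.02, adjusted p = 0.0091), and without 120 cold library 3 (1.03, adjusted p = 0.003). The fall was lost without 093 control library 3 (-0.92) and 093 cold library 2 (-0.99). The other, Phvul.002G136000, was higher in every cold library of its variety, but its changes of 0.58 and 0.44 were under the log2 threshold.

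Among 39 tested light-signalling partners, rises and falls numbered 9 and 10 in 093 and 9 and 18 in 120. In 093 median-ratio scaling gave 3 against 17 and quantile normalization 4 against 17. A cryptochrome-interacting bHLH factor (Phvul.009G023500) fell, with means of 52.5 ± 13.8 FPKM without and 2.53 ± 0.127 FPKM with cold in 093, and 64.5 ± 22.7 and 0.902 ± 0.116 FPKM in 120. Of a pair of B-box zinc finger proteins, Phvul.002G316100 fell, with means of 11.2 ± 3.901 FPKM without and 0.0159 ± 0.0132 FPKM with cold in 093, and 12.4 ± 1.86 and 0.578 ± 0.424 FPKM in 120. The other, Phvul.001G203000, rose, with means of 1.71 ± 0.424 FPKM without and 20.1 ± 0.623 FPKM with cold in 093, and 1.86 ± 0.442 and 14.9 ± 1.81 FPKM in 120. The locus described as HY5-homolog (Phvul.010G018200), chosen after its values were seen, was not called in either cold contrast (0.66 and 0.04).

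Of 5 tested loci whose descriptions name a G-box binding factor or GBF, 2 rose and 1 fell in 093, against 2 and 2 in 120, or 1 and 2 under either scaling. These words also matched a locus described as interacting with GBF, which is not itself named a G-box binding factor. G-box binding factor 3 (Phvul.010G108800), itself a bZIP protein in Arabidopsis, rose, with means of 10.9 ± 6.89 FPKM without and 40.2 ± 1.195 FPKM with cold in 093, and 13.5 ± 0.143 and 51.05 ± 9.41 FPKM in 120. A second locus of that name (Phvul.006G109700) rose by 1.497 (SE 0.183, adjusted p = 1.5e-05) in 093 and 1.099 (SE 0.183, adjusted p = 0.00019) in 120, the latter call being lost with median-ratio scaling (0.903) and quantile normalization (0.804) and without 120 control library 3 (0.97). GBF-interacting factor 1 (Phvul.005G100700) fell, with means of 84.5 ± 12.2 FPKM without and 8.54 ± 1.31 FPKM with cold in 093, and 118 ± 21.7 and 5.06 ± 0.779 FPKM in 120. The difference of its falls, -1.12 (SE 0.244, adjusted p = 0.0054), was lost with median-ratio scaling (-0.81) and quantile normalization (-0.74).

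The sugar-response bZIP members, 4 loci with GO terms for the response to glucose, held 3 of the 5 bZIP members whose responses differed. Bean has a pair described as bZIP9, a factor that pairs with sugar-regulated bZIP proteins in Arabidopsis. Of these, Phvul.009G104100 read 6.07, 2.64 and 2.82 FPKM in 093 control and 17.2, 17.02 and 16.8 FPKM in 093 cold, so every cold library was higher. Its 120 libraries read 11.5, 9.96 and 9.83 FPKM in 120 control and 5.79, 6.24 and 7.03 FPKM in 120 cold, so every cold library was lower. It rose by 1.96 (SE 0.214, adjusted p = 5.8e-06) in 093 and changed by -0.64 (SE 0.214, adjusted p = 0.019) in 120. The difference of -2.599 (SE 0.303, adjusted p = 0.00015) was the most negative among bZIP members and was called under every alternative. Without cold it was higher in 120, by 1.303 (SE 0.214, adjusted p = 0.00095), and under cold it was lower in 120, by 1.297 (SE 0.214, adjusted p = 0.00085).

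The second bZIP9 locus (Phvul.001G077200) read 4.08, 1.88 and 3.16 FPKM in 093 control and 3.57, 2.57 and 2.81 FPKM in 093 cold, with overlapping groups. The values in 120 were 5.71, 5.76 and 6.35 FPKM in 120 control and 1.42, 1.603 and 1.097 FPKM in 120 cold, with no overlap. It changed by 0.01 (SE 0.199, adjusted p = 0.96) in 093 and fell by 1.55 (SE 0.199, adjusted p = 2.4e-05) in 120, and the difference was -1.57 (SE 0.282, adjusted p = 0.0019). Both bZIP9 loci thus had a lower response in 120 than in 093.

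Phvul.007G187400, described only as a bZIP family protein, read 6.503, 4.87 and 6.39 FPKM in 093 control, 17.8, 20.7 and 15.4 in 093 cold, 8, 5.58 and 7.99 in 120 control and 8.36, 11.4 and 10.6 in 120 cold. It rose by 1.45 (SE 0.177, adjusted p = 1.5e-05) in 093 and changed by 0.45 (SE 0.177, adjusted p = 0.04) in 120, and the difference was -1.01 (SE 0.25, adjusted p = 0.011). The rise was lost with median-ratio scaling (0.96), and the difference with median-ratio scaling (-0.71) and quantile normalization (-0.83) and without 093 control library 2 (-0.895), 093 cold library 2 (-0.91), 120 control library 1 (-0.93), 120 control library 3 (-0.93) and 120 cold library 1 (-0.89). The bZIP member with the highest mean level, Phvul.006G101700, fell in both varieties. It read 48.8, 57.1 and 40.7 FPKM in 093 control, 12.4, 12.1 and 10.2 in 093 cold, 50.9, 32.8 and 57.8 in 120 control and 9.55, 12.5 and 4.09 in 120 cold, with no control library as low as any cold library. The falls were 1.98 (SE 0.316, adjusted p = 0.00014) in 093 and 2.38 (SE 0.316, adjusted p = 3.1e-05) in 120, and the varieties' responses were not called different (-0.41 (SE 0.447, adjusted p = 0.52)).

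The remaining 9 bZIP members share a single further KEGG entry and carry the general family description. Rises and falls numbered 2 and 1 in 093 and 3 and 0 in 120. Phvul.011G053500 read 5.27, 4.97 and 8.32 FPKM in 093 control, 26.2, 23.2 and 26.8 in 093 cold, 7.096, 7.43 and 6.49 in 120 control and 23.7, 22.4 and 21.3 in 120 cold. Its cold libraries stood above the controls in both varieties, and it rose by 1.904 (SE 0.159, adjusted p = 6.6e-07) in 093 and 1.55 (SE 0.159, adjusted p = 3.7e-06) in 120. Phvul.005G153900 rose, with means of 2.81 ± 0.143 FPKM without and 10.03 ± 2.405 FPKM with cold in 093, and 4.05 ± 0.251 and 9.96 ± 0.889 FPKM in 120. Its call in 120 was lost with median-ratio scaling (0.93) and quantile normalization (0.84).

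Phvul.001G009000 rose in 120, by 1.304 (SE 0.317, adjusted p = 0.003). The 093 control libraries read 9.13, 6.39 and 19.1 FPKM, around the 093 cold libraries at 16.9, 15.7 and 15.9 FPKM. Its call in 120 was lost with quantile normalization (0.99, adjusted p = 0.0073). Phvul.005G068500, which passed the filter through control libraries only, fell by 1.35 (SE 0.309, adjusted p = 0.0019) in 093, from 1.93 ± 1.09 to 0.0846 ± 0.0245 FPKM, and stood at 0.338, 1.73 and 0.448 FPKM in 120 control and 0.00972, 0 and 0.149 FPKM in 120 cold. Phvul.002G248500 was higher in the 093 cold libraries (11.7 ± 2.95 to 19.7 ± 0.375 FPKM) and lower in the 120 cold libraries (19.3 ± 3.2 to 15.5 ± 1.298 FPKM). Neither change was called, but the difference was, at -1.03 (SE 0.232, adjusted p = 0.0066). It was lost with median-ratio scaling (-0.72) and quantile normalization (-0.84) and without 093 control library 1 (-0.94), 093 control library 2 (-0.93), 120 control library 2 (-0.903) and 120 cold library 2 (-0.97).

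The 4 others of this subgroup were called in none of the 5 contrasts. Phvul.008G247800 changed by 0.12 in 093 and 0.08 in 120, at 0.9 ± 0.2996 and 1.23 ± 0.235 FPKM in the control groups. Phvul.011G038200 changed by -0.07 and 0.39. Phvul.009G142900 changed by -0.94 (SE 0.192, adjusted p = 0.00091) in 093, just under the size threshold, and by -0.02 in 120. The change in 093 was called with median-ratio scaling (-1.215) and quantile normalization (-1.39), and so was the difference of the responses, 0.91 (SE 0.272, adjusted p = 0.025) in the fit without them, at 1.08 and 1.17. Phvul.006G078500 changed by -0.42 in 093 and -0.82 (SE 0.187, adjusted p = 0.0019) in 120.

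**Figure D2:**
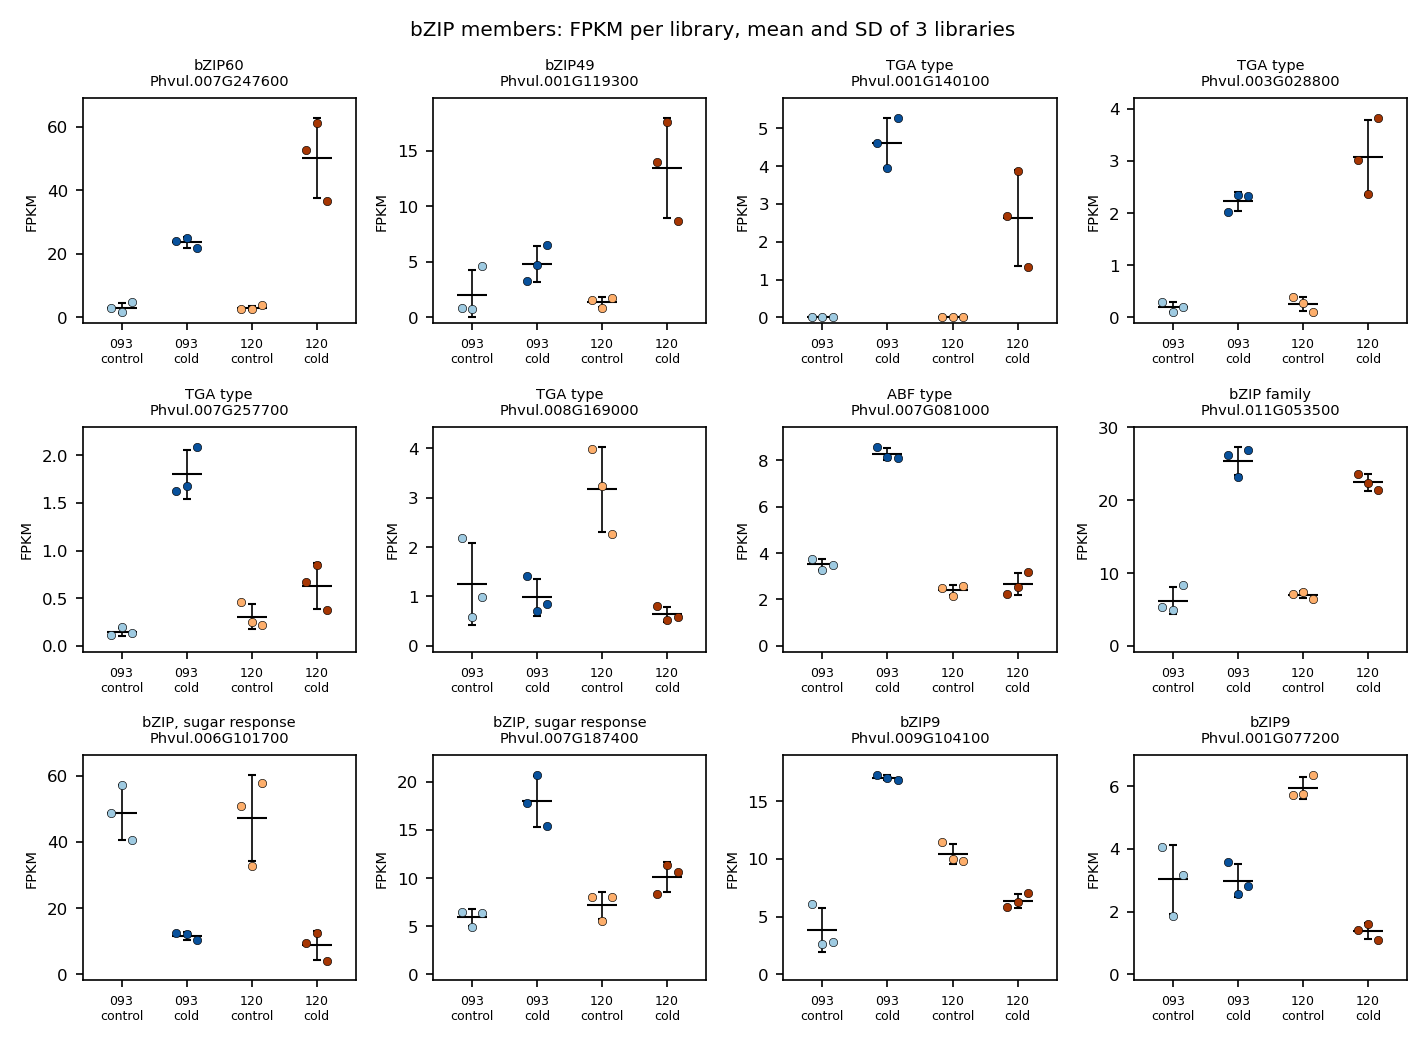
FPKM in each library (points) with the group mean and SD (n = 3) for bZIP members, in the order 093 control, 093 cold, 120 control and 120 cold. SD bars are cut at 0. The panel of bZIP60 shows cold libraries above controls in both varieties, and that of Phvul.009G104100 shows a rise in 093 beside lower cold values in 120.

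The homeobox members of HD-ZIP class I numbered 11. Rises and falls numbered 4 and 4 in 093 and 3 and 6 in 120, with 2 against 4 in 093 under either scaling. The difference of the responses was called for 6 of them, 2 higher and 4 lower in 120, with the same split under both scalings. Homeobox 7 (Phvul.010G117200), in Arabidopsis a factor induced by drought and ABA, read 0.1196, 0.384 and 0.163 FPKM in 093 control and 3.67, 3.19 and 3.14 FPKM in 093 cold. In 120 it read 0.142, 0.134 and 0.214 FPKM in 120 control and 18.3, 15.2 and 17.1 FPKM in 120 cold. The control groups did not separate, and every 120 cold library lay above every 093 cold library. It rose by 1.83 (SE 0.136, adjusted p = 2.4e-07) in 093 and by 3.94 (SE 0.136, adjusted p = 9.5e-10) in 120, and the difference of 2.11 (SE 0.192, adjusted p = 3.1e-05) was called under every alternative. Under cold, 120 exceeded 093 by 2.04 (SE 0.136, adjusted p = 1e-06). Since it passed the filter through cold libraries only, the direction of its rises was set by that choice.

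A locus described as homeobox 1 (Phvul.003G192900) rose as well. It stood at 13.1, 9.23 and 11.5 FPKM in 093 control and 27.3, 26.2 and 27.03 FPKM in 093 cold and at 10.1, 5.801 and 6.77 FPKM in 120 control and 43.5, 34.4 and 44.95 FPKM in 120 cold. The rise was 1.19 (SE 0.185, adjusted p = 0.00011) in 093 and 2.32 (SE 0.185, adjusted p = 4.7e-07) in 120, with a difference of 1.12 (SE 0.262, adjusted p = 0.0078). The rise in 093 was lost with median-ratio scaling (0.68) and quantile normalization (0.71), and the difference without 120 control library 2 (0.98). One of the homeobox protein 6 loci (Phvul.006G013200), whose Arabidopsis counterpart is an ABA-regulated repressor, was low without cold and passed the filter through cold libraries only. It rose, with means of 0.197 ± 0.0705 FPKM without and 2.33 ± 0.675 FPKM with cold in 093, and 0.188 ± 0.0913 and 2.44 ± 0.767 FPKM in 120, by 1.46 (SE 0.191, adjusted p = 2.6e-05) and 1.51 (SE 0.191, adjusted p = 2.1e-05).

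Abundant class I members fell in both varieties. Homeobox protein 16 (Phvul.001G254000), in Arabidopsis a growth and flowering-time regulator, read 81.5, 50.3 and 50.3 FPKM in 093 control and 11.6, 10.2 and 8.86 FPKM in 093 cold. Its 120 libraries read 59.4, 57.9 and 61.4 FPKM in 120 control and 4.5, 4.51 and 7.28 FPKM in 120 cold. It fell by 2.43 (SE 0.207, adjusted p = 7.7e-07) in 093 and by 3.26 (SE 0.207, adjusted p = 7.8e-08) in 120, the latter being the most negative change of any member. The other homeobox protein 6 locus (Phvul.002G260700) fell, with means of 83.6 ± 13.1 FPKM without and 36.5 ± 1.69 FPKM with cold in 093, and 121 ± 22.4 and 41.5 ± 8.74 FPKM in 120. Its log2 changes were -1.16 (SE 0.176, adjusted p = 8.8e-05) and -1.52 (SE 0.176, adjusted p = 1e-05), opposite to those of its namesake Phvul.006G013200.

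The 4 loci described as homeobox 1 did not move alike. Beside Phvul.003G192900, which rose, Phvul.009G190200 fell, with means of 10.1 ± 2.45 FPKM without and 1.01 ± 0.136 FPKM with cold in 093, and 11.2 ± 0.803 and 2.16 ± 0.2502 FPKM in 120. Phvul.002G067200 fell, with means of 10.5 ± 2.44 FPKM without and 2.66 ± 0.08897 FPKM with cold in 093, and 21.7 ± 7.02 and 4.54 ± 1.47 FPKM in 120. The last, Phvul.004G017500, read 15.5, 8.34 and 12.4 FPKM in 093 control and 15.4, 10.2 and 10.9 FPKM in 093 cold, with overlapping groups. The values in 120 were 19.8, 20.7 and 19.1 FPKM in 120 control and 7.28, 5.47 and 3.72 FPKM in 120 cold, with no overlap. It changed by 0.03 (SE 0.242, adjusted p = 0.93) in 093 and fell by 1.72 (SE 0.242, adjusted p = 5e-05) in 120, with a difference of -1.75 (SE 0.342, adjusted p = 0.003).

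The 3 other class I members responded differently in the varieties. Phvul.002G088600 read 2.41, 0.756 and 0.996 FPKM in 093 control, 3.03, 2.42 and 2.31 in 093 cold, 9.81, 6.43 and 4.09 in 120 control and 1.68, 1.22 and 1.66 in 120 cold. It was higher in 120 than in 093 without cold, by 1.7 (SE 0.287, adjusted p = 0.0011), and fell by 1.56 (SE 0.287, adjusted p = 0.00041) in 120, while it changed by 0.65 (SE 0.287, adjusted p = 0.061) in 093. The difference of -2.21 (SE 0.406, adjusted p = 0.0021) was the most negative of the homeobox members. Phvul.003G067700 read 7.26, 4.16 and 7.19 FPKM in 093 control, 11.9, 12.3 and 14.3 in 093 cold, 9.43, 9.33 and 5.64 in 120 control and 3.68, 3.44 and 6.01 in 120 cold. Neither cold contrast was called (0.97 in 093, -0.77 in 120), and the difference was, at -1.74 (SE 0.35, adjusted p = 0.0035). Homeobox protein 20 (Phvul.004G027500) read 0.579, 0.332 and 0.787 FPKM in 093 control, 2.29, 1.71 and 2.54 in 093 cold, 1.17, 0.368 and 0.252 in 120 control and 0.284, 0.279 and 0.159 in 120 cold. It rose by 1.02 (SE 0.208, adjusted p = 0.00085) in 093, changed by -0.32 (SE 0.208, adjusted p = 0.19) in 120, and had a difference of -1.34 (SE 0.294, adjusted p = 0.0056). The rise in 093 was lost with median-ratio scaling (0.75) and quantile normalization (0.61) and without 093 control library 2 (0.91), 093 cold library 1 (0.99) and 093 cold library 3 (0.94).

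The members assigned to class II were lower or level under cold. Of 6, 0 had risen and 1 fallen in 093 and 0 risen and 4 fallen in 120, with 2 falls in 093 under median-ratio scaling and 4 under quantile normalization. HB-4 (Phvul.002G056300), in Arabidopsis a shade-induced factor, read 11.03, 7.45 and 8.37 FPKM in 093 control and 3.57, 2.94 and 3.75 FPKM in 093 cold. In 120 it read 6.12, 5.79 and 5.77 FPKM in 120 control and 0.463, 0.348 and 0.5897 FPKM in 120 cold. It fell by 1.16 (SE 0.155, adjusted p = 3.2e-05) in 093 and by 2.23 (SE 0.155, adjusted p = 1.5e-07) in 120. The difference of -1.08 (SE 0.219, adjusted p = 0.0038) was lost with median-ratio scaling (-0.76) and quantile normalization (-0.81) and without 093 control library 2 (-0.96), and under cold 120 was lower than 093 by 1.59 (SE 0.155, adjusted p = 2e-05).

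Homeobox protein 2 (Phvul.003G223200), another shade-responsive factor in Arabidopsis, read 13.6, 10.1 and 8.71 FPKM in 093 control, 7.33, 5.73 and 5.59 in 093 cold, 11.1, 7.77 and 11.9 in 120 control and 1.81, 1.78 and 3.94 in 120 cold. Its change in 093 was -0.69 (SE 0.248, adjusted p = 0.025), with no overlap between the groups, and it fell by 1.72 (SE 0.248, adjusted p = 6.3e-05) in 120. The difference, -1.02 (SE 0.35, adjusted p = 0.043), lay at the threshold and was lost with no filter on low values (-1.02, adjusted p = 0.067), median-ratio scaling (-0.72) and quantile normalization (-0.77) and without 093 control library 2 (-0.99), 093 control library 3 (-0.89), 093 cold library 1 (-0.92), 093 cold library 2 (-1.07, adjusted p = 0.067), 093 cold library 3 (-1.08, adjusted p = 0.064), 120 control library 1 (-0.96), 120 control library 3 (-0.91), 120 cold library 1 (-0.89) and 120 cold library 2 (-0.88). Phvul.010G052200 and Phvul.002G008600, both chosen after their values were seen, fell in 120 by 1.15 (SE 0.157, adjusted p = 4.2e-05) and 1.17 (SE 0.146, adjusted p = 1.9e-05). In 093 they changed by -0.72 and -0.57, under the threshold. Phvul.003G232000 was level, with changes of -0.18 and -0.203, and Phvul.002G094100 changed by -0.57 and -0.36. Phvul.010G052200 and Phvul.002G094100 passed the filter through control libraries only, which set their direction at least in part.

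Class III members carry a START domain after the zipper and act in leaf polarity and vascular development in Arabidopsis. Of 6, 3 had risen and 1 fallen in 093 and 1 risen and 1 fallen in 120, with 2 against 1 in 093 under either scaling. Phvul.006G128600 read 2.81, 1.99 and 2.25 FPKM in 093 control and 14.97, 15.7 and 15.1 FPKM in 093 cold. Its 120 libraries read 3.01, 4.44 and 2.05 FPKM in 120 control and 7.61, 9.31 and 10.1 FPKM in 120 cold. No cold library overlapped with the controls, and it rose by 2.28 (SE 0.197, adjusted p = 8.4e-07) in 093, the largest rise of a homeobox member there, and by 1.297 (SE 0.197, adjusted p = 9.5e-05) in 120. Phvul.005G166900 read 6.74, 3.05 and 4.53 FPKM in 093 control, 19.5, 17.5 and 18.1 in 093 cold, 8.55, 9.53 and 7.83 in 120 control and 13.9, 16.4 and 10.9 in 120 cold. It rose by 1.795 (SE 0.214, adjusted p = 1.2e-05) in 093 and changed by 0.599 (SE 0.214, adjusted p = 0.026) in 120, where every cold library was still above every control library. The difference of -1.197 (SE 0.303, adjusted p = 0.012) was lost with median-ratio scaling (-0.91) and without 093 control library 2 (-0.97).

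Phvul.011G079800 went the other way, with means of 16.4 ± 5.56 FPKM without and 4.72 ± 0.328 FPKM with cold in 093, and 22.8 ± 1.75 and 2.19 ± 0.284 FPKM in 120. The falls were 1.56 (SE 0.194, adjusted p = 1.8e-05) and 2.898 (SE 0.194, adjusted p = 1.2e-07), with a difference of -1.34 (SE 0.274, adjusted p = 0.0039) that was called under every alternative. Homeobox gene 8 (Phvul.009G110500), in Arabidopsis a marker of the procambium and chosen after its values were seen, read 1.999, 1.77 and 1.44 FPKM in 093 control, 4.804, 5.05 and 4.72 in 093 cold, 3.501, 2.71 and 2.08 in 120 control and 2.68, 2.17 and 3.02 in 120 cold. It rose by 1.104 (SE 0.165, adjusted p = 7.8e-05) in 093 and changed by -0.04 (SE 0.165, adjusted p = 0.83) in 120, with a difference of -1.15 (SE 0.233, adjusted p = 0.0037). The rise was lost with median-ratio scaling (0.699) and quantile normalization (0.69), and the difference with median-ratio scaling (-0.899) and quantile normalization (-0.97). Phvul.010G146200 changed by 0.71 (SE 0.147, adjusted p = 0.001) in 093 and -0.04 (SE 0.147, adjusted p = 0.83) in 120. Phvul.002G246800, which passed the filter through cold libraries only, changed by 0.504 and 0.56. Neither was called in any contrast.

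Class IV members, epidermal factors in Arabidopsis, had no difference of responses called. Of 5, 0 had risen and 1 fallen in 093 and 1 risen and 1 fallen in 120. Quantile normalization gave 3 falls in each variety and no rise. The locus described as homeobox-7 (Phvul.002G137000) read 11.4, 12.4 and 15.2 FPKM in 093 control and 2.11, 1.61 and 1.75 FPKM in 093 cold. The values in 120 were 9.18, 5.74 and 12.4 FPKM in 120 control and 2.82, 4.34 and 1.31 FPKM in 120 cold. It fell by 2.31 (SE 0.301, adjusted p = 2.6e-05) in 093 and by 1.43 (SE 0.301, adjusted p = 0.0011) in 120. Phvul.008G072700, chosen after its values were seen, was higher in all cold libraries of both varieties. It changed by 0.83 (SE 0.213, adjusted p = 0.0039) in 093 and rose by 1.08 (SE 0.213, adjusted p = 0.00071) in 120, a call that was lost with median-ratio scaling (0.88) and quantile normalization (0.78) and without 120 control library 3 (1, adjusted p = 0.004), 120 cold library 1 (0.903) and 120 cold library 2 (0.99).

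The other 3 class IV members were not called in any contrast, though Phvul.010G090300 was called lower in 093 with median-ratio scaling (-1.13) and quantile normalization (-1.102), and Phvul.010G148700 in both varieties and Phvul.007G067500 in 120 with quantile normalization. Phvul.010G148700 had means of 0.96 ± 0.117 FPKM without and 0.229 ± 0.0461 FPKM with cold in 093, and 1.26 ± 0.216 and 0.206 ± 0.0883 FPKM in 120, with log2 changes of -0.67 and -0.905. It passed the filter through control libraries only, which set its direction at least in part. Phvul.010G090300 changed by -0.63 and -0.43, and Phvul.007G067500 by -0.09 and -0.82. Loci described as homeodomain GLABROUS without the searched family words formed a list of 6, of which 2 were tested. A homeodomain GLABROUS 2 locus (Phvul.011G104700) rose, with means of 0.4497 ± 0.199 FPKM without and 5.74 ± 0.402 FPKM with cold in 093, and 0.605 ± 0.0959 and 3.27 ± 0.273 FPKM in 120, and the other tested locus was not called in either cold contrast. Words for class III factors by name and for zinc finger homeodomain or little zipper proteins matched 0 loci.

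**Figure D3:**
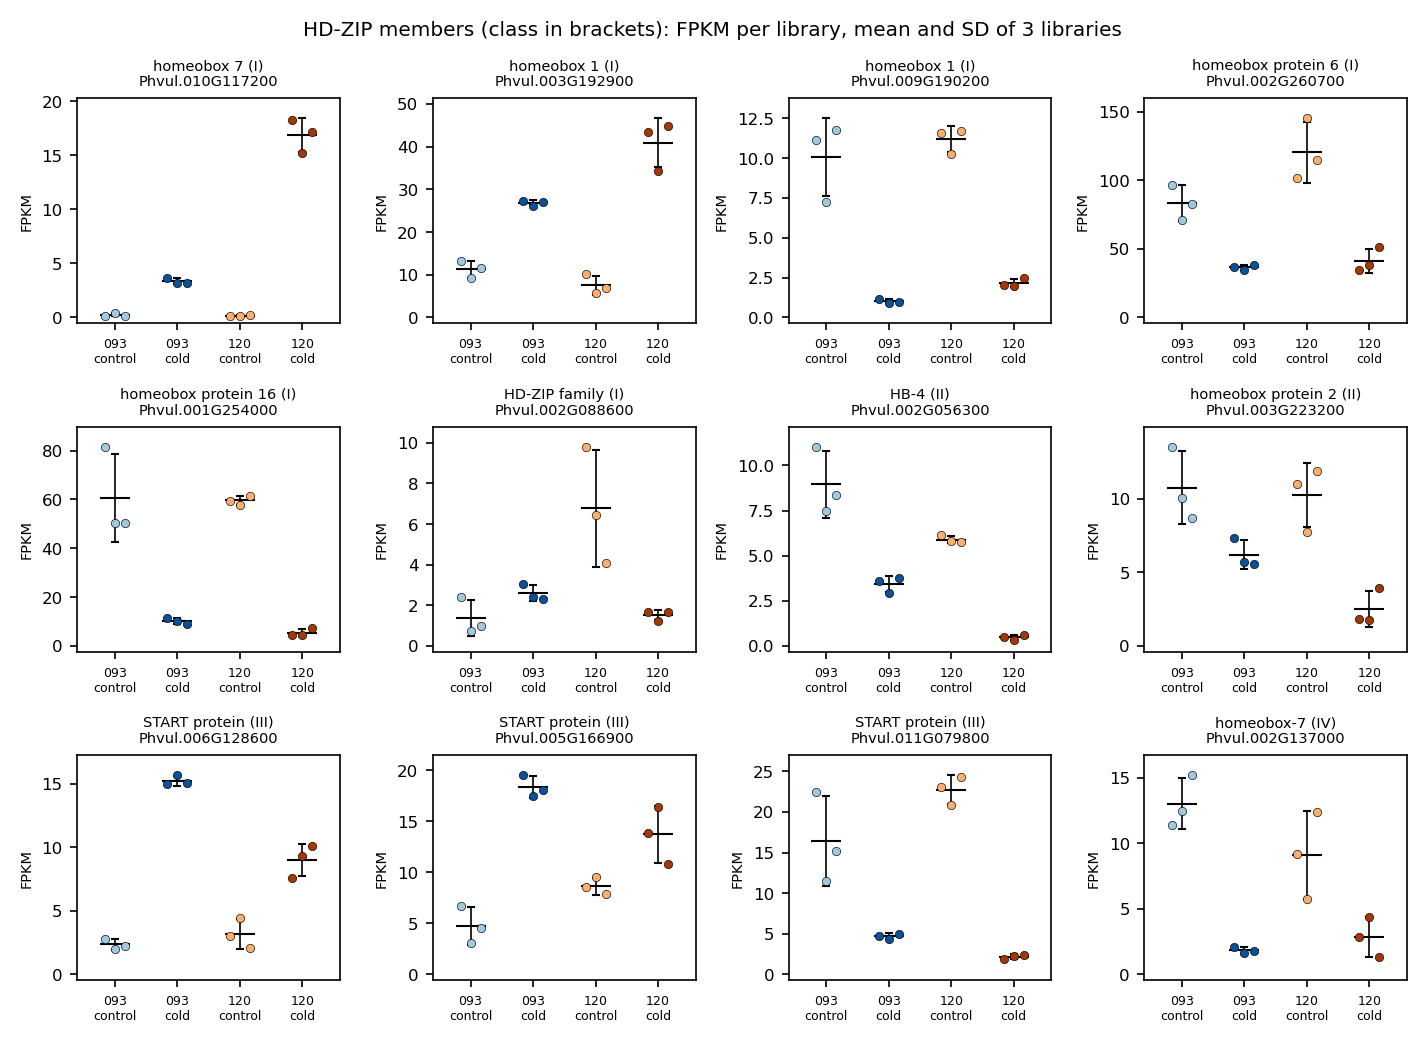
FPKM in each library (points) with the group mean and SD (n = 3) for HD-ZIP members, in the order 093 control, 093 cold, 120 control and 120 cold. SD bars are cut at 0. Homeobox 7 rises further in 120 than in 093, and homeobox protein 16 is low in all 6 cold libraries.

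KNOX members included the homeobox locus with the highest level, and no KNOX member fell. In 093, 2 of 5 rose, or 1 under either other scaling, and in 120, 2 of 5. KNAT7 (Phvul.002G153300), in Arabidopsis a regulator of secondary cell walls, read 25.5, 23.1 and 26.9 FPKM in 093 control and 75.7, 71.6 and 71.3 FPKM in 093 cold. In 120 it read 22.4, 22.4 and 15.4 FPKM in 120 control and 59.4, 51.9 and 44.6 FPKM in 120 cold. It rose by 1.5 (SE 0.153, adjusted p = 3.3e-06) in 093 and 1.34 (SE 0.153, adjusted p = 9.1e-06) in 120, with no overlap between cold and control. The rise in 093 was lost with median-ratio scaling (0.97) and quantile normalization (0.997, adjusted p = 8.3e-05). KNAT6 (Phvul.001G224900), of the meristem-expressed KNOX class in Arabidopsis, was close to 0 without cold and passed the filter through cold libraries only. It read 0.105, 0 and 0 FPKM in 093 control, 1.42, 1.83 and 2.53 in 093 cold, 0.138, 0 and 0 in 120 control and 1.54, 0.673 and 0.786 in 120 cold. It rose by 1.48 (SE 0.186, adjusted p = 1.9e-05) in 093 and changed by 0.91 (SE 0.186, adjusted p = 0.00088) in 120.

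The 3 KNAT3 loci, of the broadly expressed KNOX class in Arabidopsis, differed from each other. Phvul.009G090500 read 23.1, 20.8 and 24.3 FPKM in 093 control, 44.9, 39.7 and 42.7 in 093 cold, 10.6, 14.2 and 13.03 in 120 control and 34.9, 35.1 and 28.3 in 120 cold. It changed by 0.87 (SE 0.132, adjusted p = 9e-05) in 093 and rose by 1.31 (SE 0.132, adjusted p = 3.2e-06) in 120, and all cold libraries lay above the controls of their variety. Phvul.003G174900 changed by 0.19 (SE 0.145, adjusted p = 0.25) in 093 and -0.66 (SE 0.145, adjusted p = 0.0016) in 120. It had 56.5 ± 1.71 FPKM in 093 cold and 30.8 ± 7.12 FPKM in 120 cold, with no call in any contrast. Phvul.009G209500, the homeobox member with the highest mean level, read 78.5, 64.5 and 81.6 FPKM in 093 control, 102, 101 and 100.4 in 093 cold, 67.7, 69.9 and 79.8 in 120 control and 106, 91.8 and 66.2 in 120 cold. Its changes were 0.43 (SE 0.163, adjusted p = 0.031) in 093 and 0.25 (SE 0.163, adjusted p = 0.19) in 120, and it was called nowhere.

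BELL members, described by their POX domain, are partners of KNOX proteins. Of 4, 2 had risen and 2 fallen in 093 and 0 risen and 2 fallen in 120. The abundant pair fell in both varieties. Phvul.002G159000 read 45.3, 40.5 and 39.9 FPKM in 093 control and 10.6, 10.5 and 11.2 FPKM in 093 cold. Its 120 libraries read 69.6, 67.3 and 81.6 FPKM in 120 control and 11.6, 9.79 and 9.25 FPKM in 120 cold. It fell by 1.86 (SE 0.117, adjusted p = 6.7e-08) in 093 and 2.72 (SE 0.117, adjusted p = 4.4e-09) in 120. Phvul.002G292000 fell, with means of 32.2 ± 10.2 FPKM without and 10.96 ± 1.104 FPKM with cold in 093, and 48.9 ± 3.62 and 13.2 ± 0.978 FPKM in 120.

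The low pair rose in 093. Phvul.010G011900 read 0.825, 0.728 and 0.7996 FPKM in 093 control and 3.73, 4.49 and 4.23 FPKM in 093 cold, with no overlap. The values in 120 were 1.88, 1.04 and 1.93 FPKM in 120 control and 1.23, 1.72 and 1.67 FPKM in 120 cold, with overlap. It rose by 1.53 (SE 0.164, adjusted p = 5.1e-06) in 093, changed by -0.03 (SE 0.164, adjusted p = 0.89) in 120, and the difference was -1.56 (SE 0.232, adjusted p = 0.00064). Phvul.008G114300, which passed the filter through 093 cold alone, rose by 1.24 (SE 0.147, adjusted p = 1.2e-05) in 093, from 0.244 ± 0.106 to 1.95 ± 0.236 FPKM, and changed by 0.27 (SE 0.147, adjusted p = 0.13) in 120. Its rise was lost with quantile normalization (0.82).

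Loci with the description BEL1-like homeodomain do not carry the word homeobox. The word POX in a list meant for them also matched lipoxygenases and other enzymes, which made up most of its 35 tested loci (13 rises and 6 falls in 093, 10 and 9 in 120). Restricted to that description after values were seen, 10 loci were tested, of which 4 had risen and 2 fallen in 093 and 2 risen and 4 fallen in 120. In 093 either scaling gave 2 against 3. BEL1-like homeodomain 1 (Phvul.007G267900), chosen after its values were seen, read 37.3, 30.3 and 30.1 FPKM in 093 control, 561, 543 and 576 in 093 cold, 25.6, 32.5 and 29.9 in 120 control and 196, 155 and 135 in 120 cold. It rose by 4.07 (SE 0.152, adjusted p = 2e-09) in 093 and 2.41 (SE 0.152, adjusted p = 7.4e-08) in 120, with a difference of -1.66 (SE 0.216, adjusted p = 0.00029) that was called under every alternative.

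Among WUSCHEL-related homeobox 13 loci, which in Arabidopsis are expressed in many organs, 1 of 3 changed. Phvul.009G012200 read 0.612, 0.598 and 0.364 FPKM in 093 control and 0.893, 0.289 and 0.398 FPKM in 093 cold, with overlap. In 120 it read 3.57, 3.75 and 4.08 FPKM in 120 control and 0.295, 0.189 and 0.104 FPKM in 120 cold, with no overlap. It passed the filter through its 3 libraries of 120 control alone, so each of the following values rests on the group that admitted it. It was higher in 120 than in 093 without cold, by 1.66 (SE 0.161, adjusted p = 2.1e-05), and fell by 2.01 (SE 0.161, adjusted p = 4.7e-07) in 120, while it changed by -0.01 (SE 0.161, adjusted p = 0.94) in 093. The difference was -1.99 (SE 0.228, adjusted p = 0.00014). Phvul.007G011600 and Phvul.008G014000 stood at 22.2 ± 3.47 and 11.8 ± 3.06 FPKM in 093 control. They changed by 0.04 and 0.43 in 093 and by -0.12 and 0.64 in 120, and neither was called.

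The pair described as homeobox-1 fell in 120. Phvul.002G232200 read 11.6, 10.7 and 12.02 FPKM in 093 control, 6.76, 6.24 and 7.999 in 093 cold, 15.9, 14.5 and 14.8 in 120 control and 3.51, 2.59 and 2.75 in 120 cold. Its groups did not overlap in either variety, but the change of -0.64 (SE 0.131, adjusted p = 0.00083) in 093 was below the size threshold and the fall of 2.03 (SE 0.131, adjusted p = 8.6e-08) in 120 was above it. The difference was -1.38 (SE 0.185, adjusted p = 0.00034). Phvul.006G182000, chosen after its values were seen, changed by -0.94 (SE 0.136, adjusted p = 6.2e-05) in 093 and fell by 1.45 (SE 0.136, adjusted p = 1.8e-06) in 120. Its difference was not called (-0.51 (SE 0.192, adjusted p = 0.062)). Both also fell in 093 under either other scaling, with 2 of 2 called.

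For 3 members the description says no more than a homeobox from Arabidopsis. They were assigned to no class, and whether they are HD-ZIP proteins is not known here. Phvul.003G138200 read 0.6505, 0.117 and 0.2503 FPKM in 093 control, 0.814, 0.812 and 0.7904 in 093 cold, 0.0709, 0.295 and 0.359 in 120 control and 4.14, 3.97 and 2.53 in 120 cold. Every 120 cold library lay above all others, and the filter was passed through these 3 alone. It changed by 0.45 (SE 0.189, adjusted p = 0.049) in 093 and rose by 1.86 (SE 0.189, adjusted p = 3.5e-06) in 120, and the difference was 1.41 (SE 0.268, adjusted p = 0.0026). Phvul.005G040000 rose, with means of 0.923 ± 0.339 FPKM without and 3.33 ± 0.573 FPKM with cold in 093, and 1.62 ± 0.08499 and 5.76 ± 2.04 FPKM in 120. Its call in 093 was lost with median-ratio scaling (0.83) and quantile normalization (0.76). Phvul.007G260900 read 0.836, 0.184 and 0.997 FPKM in 093 control, 0.897, 0.491 and 1.05 in 093 cold, 0.824, 3.44 and 2.76 in 120 control and 0.152, 0 and 0.443 in 120 cold. It fell by 1.398 (SE 0.317, adjusted p = 0.0019) in 120 and changed by 0.14 (SE 0.317, adjusted p = 0.71) in 093, and the difference of -1.54 (SE 0.448, adjusted p = 0.023) was lost without 093 control library 2 (-1.31, adjusted p = 0.054), 093 cold library 3 (-1.44, adjusted p = 0.054), 120 control library 3 (-1.404, adjusted p = 0.053) and 120 cold library 2 (-1.42, adjusted p = 0.052).

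**Figure D4:**
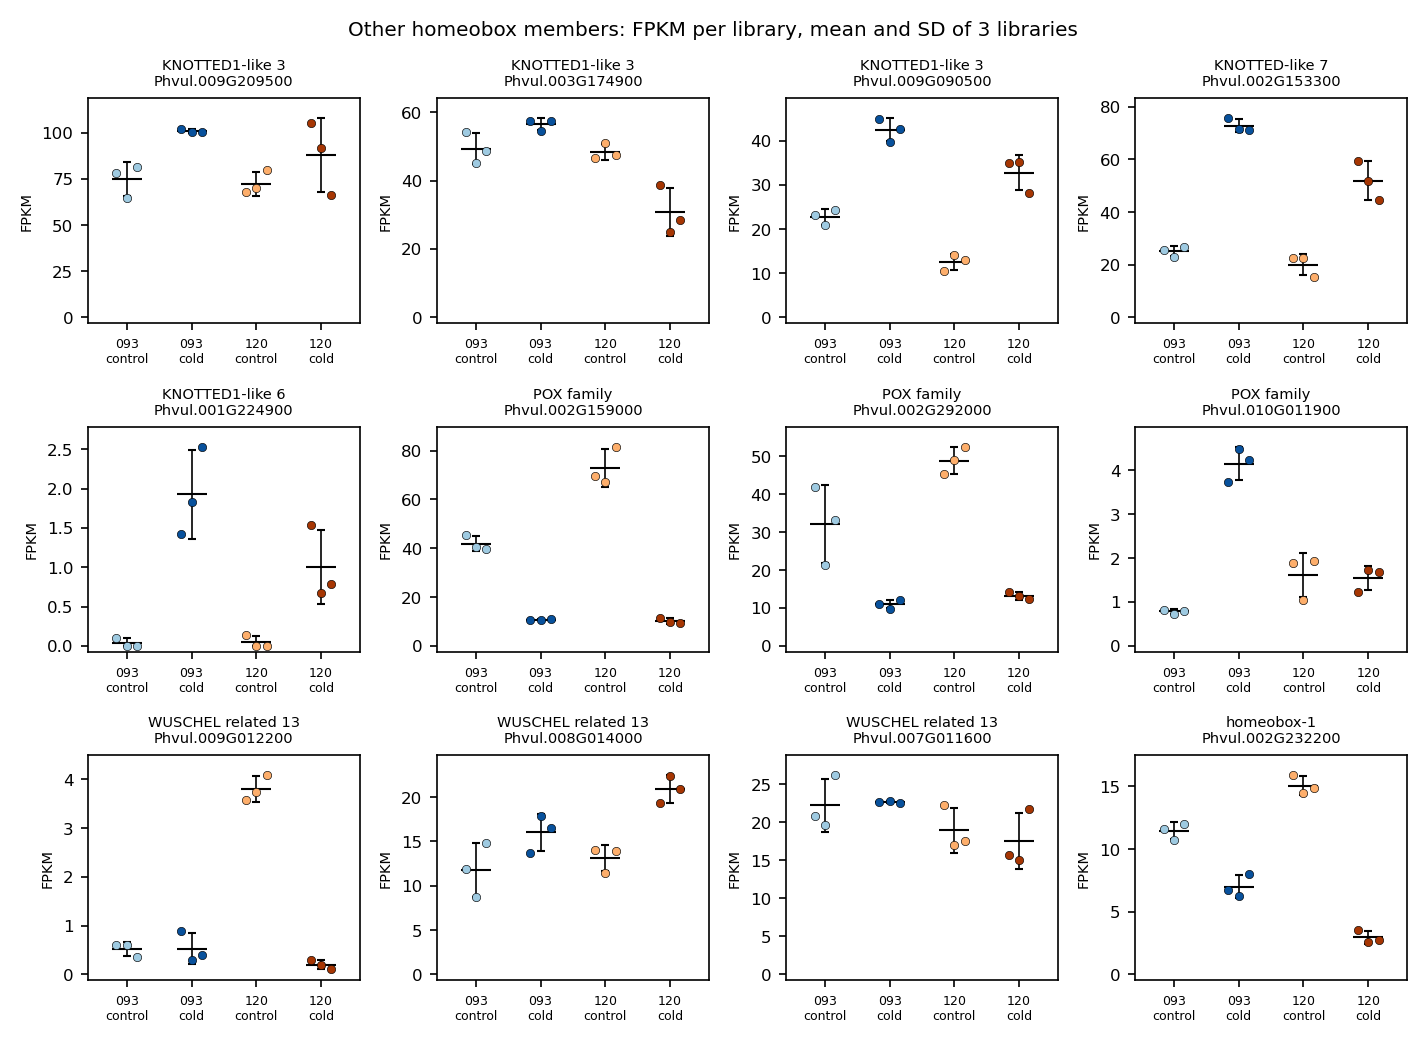
FPKM in each library (points) with the group mean and SD (n = 3) for homeobox members outside HD-ZIP, in the order 093 control, 093 cold, 120 control and 120 cold. SD bars are cut at 0. KNAT7 is high in all 6 cold libraries, and Phvul.009G012200 is high in 120 control alone.

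Without cold, few members were called between the varieties. Of 27 bZIP members, 1 was higher in 120 and 0 lower, and of 45 homeobox members, 2 were higher and 0 lower, beside 10.8% of all loci called (6.34% higher, 4.44% lower). The varieties' libraries were fully separate for 11 bZIP and 20 homeobox members, beside 39.7% of all loci. The 3 were the bZIP9 locus Phvul.009G104100, the class I locus Phvul.002G088600 and the WOX13 locus Phvul.009G012200. The last passed the filter through 120 control alone. All 3 had a called difference of responses, lower in 120, and this interaction uses the same control libraries. The bZIP count became 4 without 093 control library 1 and 2 without 120 control library 3. The homeobox count became 4 without 093 control library 1, without 093 control library 3 or without 120 control library 1.

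Under cold, 2 bZIP members were higher and 2 lower in 120 than in 093, and 2 homeobox members were higher and 7 lower, beside 12.6% of all loci called (5.62% higher, 7.03% lower). The varieties' libraries were fully separate for 16 bZIP and 30 homeobox members, beside 53.4% of all loci. The higher bZIP members were the pair placed as membrane-bound, bZIP60 (Phvul.007G247600) by 1.03 (SE 0.264, adjusted p = 0.011) and bZIP49 (Phvul.001G119300) by 1.298 (SE 0.42, adjusted p = 0.032). The lower ones were Phvul.007G081000 and Phvul.009G104100, given above. The call was lost for Phvul.007G247600 without 093 cold library 3 (0.97), 120 cold library 1 (0.98) and 120 cold library 2 (0.87), and for Phvul.001G119300 with a pseudocount of 0.1 (1.46, adjusted p = 0.078) and no filter on low values (1.298, adjusted p = 0.056) and without 093 cold library 1 (1.09, adjusted p = 0.11), 093 cold library 2 (1.304, adjusted p = 0.075), 120 cold library 1 (1.24, adjusted p = 0.087) and 120 cold library 2 (1.09, adjusted p = 0.11). The bZIP count fell to 2 without 120 cold library 1 or library 2.

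The higher homeobox members were homeobox 7 (Phvul.010G117200) and Phvul.003G138200, by 2.04 and 1.31. Phvul.003G138200 passed the filter through 120 cold alone, so its direction here was set by that choice. Lower in 120 were HB-4 (Phvul.002G056300), Phvul.003G067700 and Phvul.004G027500, which fell short of 093 by log2 differences of -1.59, -1.39 and -1.35. Also lower were Phvul.003G223200, Phvul.004G017500, Phvul.010G011900 and Phvul.002G232200, with differences of -1.09, -1.04, -1.02 and -1.02. These last 4 were lost with both other scalings, under which 2 homeobox members were higher and 3 lower. Single libraries ended their calls too. That of Phvul.003G223200 was lost with median-ratio scaling (-0.91) and quantile normalization (-0.95) and without 093 cold library 1 (-0.98), 120 cold library 1 (-0.95) and 120 cold library 2 (-0.94), and that of Phvul.004G017500 with median-ratio scaling (-0.85) and quantile normalization (-0.94) and without 093 cold library 1 (-0.87) and 120 cold library 3 (-0.83). The call of Phvul.010G011900 was lost with median-ratio scaling (-0.85) and quantile normalization (-0.87) and without 093 cold library 2 (-0.97) and 120 cold library 1 (-0.93), and that of Phvul.002G232200 with median-ratio scaling (-0.84) and quantile normalization (-0.904) and without 093 cold library 3 (-0.93), 120 cold library 2 (-0.95) and 120 cold library 3 (-0.98).

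**Figure D5:**
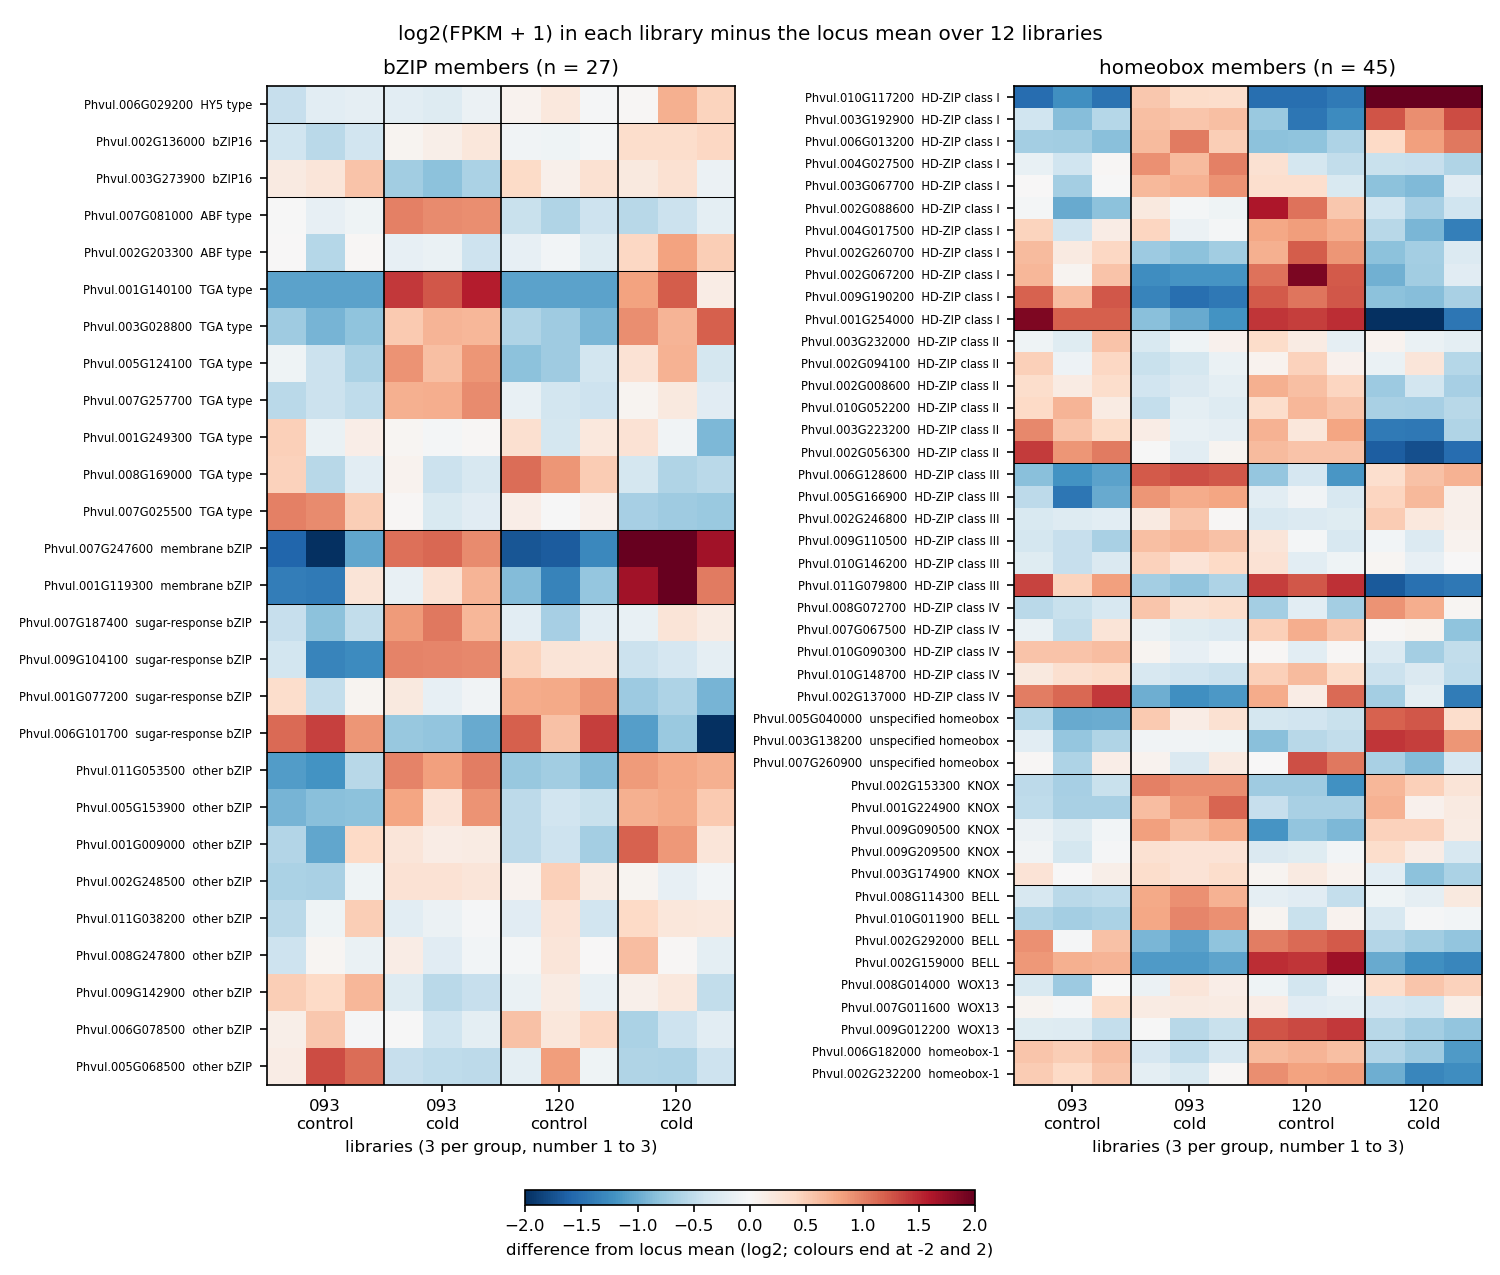
Log2(FPKM + 1) of each of the 72 members in each of the 12 libraries, as the difference from the member's mean over the libraries, with members ordered by family and subgroup. Blocks of 3 libraries are the groups, and cold and control blocks contrast in both varieties for homeobox protein 16 and bZIP60.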

How the data were processed

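Per the labels, mRNA was selected from total RNA with oligo(dT) beads, and stranded libraries were sequenced as read pairs. The submitters' processing notes name cutadapt 1.9, HISAT2 2.0.4 and StringTie 1.3.4d. The genome build is not given in the sources used here. Per the file headers, the deposited values are FPKM, which the authors computed for each library. No read counts were used.

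The members, subgroups and gene lists were chosen with earlier results of these data known. Loci with at least 1 FPKM in 3 of 12 libraries (14716) were tested. In R 4.3.3, limma 3.58.1 with a trend was fitted on log2(FPKM + 1), with 1 mean per group and all 12 libraries. P-values are two-sided and adjusted by Benjamini-Hochberg within each of 5 contrasts over all tested loci. The code was checked on simulated data.

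In each family and contrast, up to 8 called rises and 8 called falls with the largest change were to be named, with the 4 highest members by mean and up to 3 uncalled ones. From each further list up to 3 called loci were to be named. Where 2 scalings are compared, they are median-ratio scaling and quantile normalization. Alternatives were pseudocounts of 0.1 and 0.5, the low-value filter, scaling, trend, groups in the fit, a replicate block and leaving out each library. No sequence or coordinate is shown because the sources used here pair none with these loci.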

Additional observations from a re-analysis of the deposited data

Results flagged for a closer look

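The cold response differed between the varieties, by the interaction test, for 21 members. The values below are the log2 response of 120 minus that of 093. The control and cold libraries of both varieties enter each value.

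Among bZIP members the difference was lower in 120 for all 5. It was -2.60 for the bZIP9 locus Phvul.009G104100, whose log2 changes were 1.96 in 093 and -0.64 in 120, and -1.57 for the other bZIP9 locus Phvul.001G077200. The TGA-type locus Phvul.008G169000 had -1.20. Phvul.002G248500 had -1.03 and Phvul.007G187400 had -1.01.

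Among HD-ZIP class I and II members, lower differences were -2.21 for Phvul.002G088600, -1.75 for Phvul.004G017500, -1.74 for Phvul.003G067700 and -1.34 for homeobox protein 20 (Phvul.004G027500). HB-4 (Phvul.002G056300) had -1.08 and homeobox protein 2 (Phvul.003G223200) had -1.02. The class I loci with a higher difference were homeobox 7 (Phvul.010G117200) at 2.11 and a homeobox 1 locus (Phvul.003G192900) at 1.12.

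Class III members had -1.34 (Phvul.011G079800), -1.20 (Phvul.005G166900) and -1.15 (homeobox gene 8, Phvul.009G110500). Outside HD-ZIP, the WOX13 locus Phvul.009G012200 had -1.99, the POX locus Phvul.010G011900 had -1.56 and the homeobox-1 locus Phvul.002G232200 had -1.38. Of the members assigned to no class, Phvul.007G260900 had -1.54 and Phvul.003G138200 had 1.41. Among the 21, Phvul.010G117200 passed the filter through cold libraries only. Phvul.009G012200 passed it through 120 control alone and Phvul.003G138200 through 120 cold alone, so their differences rest on the groups that admitted them. Of the 21, 18 were lower and 3 higher in 120, while 13.1% of all tested loci were lower and 6.50% higher. Median-ratio scaling and quantile normalization changed this balance for bZIP members, as given with the counts above.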

How the results depend on the processing

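Group size of 3 and unknown read depth limit the precision. No called value of a member or named list locus reversed under any alternative run. Of 167 such values, median-ratio scaling ended 28 calls, quantile normalization 30, no filter 3, a pseudocount of 0.1 2, and only the compared groups in the fit 1. A pseudocount of 0.5, the fit without trend and the replicate block ended 0, as did a filter of 5 FPKM among the 130 values it kept. Leaving out single libraries ended 61 of 1164. Of 251 uncalled values of members, a pseudocount of 0.1 brought 31 over the thresholds, a pseudocount of 0.5 17, median-ratio scaling 10 and quantile normalization 16, and single libraries left out 43 of 1812. Whether replicate numbers pair the libraries could not be settled with 3 libraries per group. With group means removed, 12 same-number pairs correlated at -0.08 to 0.049, and 6 of 12 correlated best with their own number. These included every pair of 093 cold with 120 cold and none of 093 control with 120 control. With the replicate block the counts called were as without it, 14 and 10 bZIP and 21 and 27 homeobox members under cold in 093 and 120. For bZIP differences of the responses, pseudocounts of 0.1 and 0.5 gave 9 and 8 called. For bZIP varieties without cold they gave 4 and 2. At 5 FPKM in 3 libraries, 29 homeobox members were left to test, and 9 of them differed in response. All 9 were also called at 1 FPKM. Called between the varieties without cold were 0, since Phvul.002G088600 and Phvul.009G012200 did not pass that filter. Between the varieties under cold, 5 homeobox members were called with median-ratio scaling and 5 with quantile normalization. Leaving out 1 library gave 12 to 16 bZIP and 20 to 22 homeobox members in 093, 10 to 11 and 26 to 27 in 120, 3 to 9 and 12 to 20 for the difference, 1 to 4 and 2 to 4 without cold, and 2 to 4 and 7 to 8 under cold. Apart from members removed by the filter of 5 FPKM, the cause of these movements was not tested.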
